A study of Mus musculus with 6 samples.

Results

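Mitotic cell cycle genes were examined in brachiocephalic arteries, large branches of the aortic arch, taken from mice with atherosclerotic lesions. The set holds 32 genes that act in G2 and M phase, taken by name, of 24391 genes in the count table. The list of names was chosen with earlier results of these data known. All 32 were found in the table and all 32 were among the 15937 genes that passed the filter on low counts. RNA was sequenced from 6 libraries, 3 wild type (WT) and 3 Col15a1 -/- (KO), from mice on a C57BL/6 background that had all been fed a Western diet for 18 weeks. The series title describes the deletion of Col15a1, the gene of the type XV collagen chain, as specific to smooth muscle cells, while the sample labels give only the genotype; the Cre driver, the age and any further allele are not given in the sources used here. Per the labels, the lesion held a mix of smooth muscle, epithelial, macrophage and other cells, so each value is an average over an unsorted vessel. The question the comparison addresses is how lesion arteries of KO mice differed from those of WT mice.

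Entry into mitosis is driven by cyclin-dependent kinase 1 bound to cyclin A or cyclin B, and exit by the anaphase-promoting complex, which marks cyclins and other proteins for destruction. The genes of this programme are silent in resting cells and are transcribed together from late S phase to mitosis, so in a bulk tissue their transcripts come mostly from the small share of cells that are dividing. In mouse lesions, dividing cells are known to include macrophages and smooth muscle cells. In a whole artery, fewer dividing cells, less RNA per dividing cell and a larger share of RNA from other tissue cannot be told apart.

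All 32 mitotic genes had a lower fitted level in KO than in WT, and 28 of the 32 had a log2 fold change under -0.5. Among all genes tested, 39.1% had a negative log2 fold change and 7.72% one under -0.5. The median log2 fold change of the mitotic genes was -0.68, which is 1.61-fold lower in KO, against a median of 0.068 over all genes tested. For 21 of the 32, every KO library lay below every WT library, against 8.38% of all genes tested, and for 0 every KO library lay above, against 8.33%. No mitotic gene passed the test: edgeR called 0 of the 32 at an adjusted p under 0.05, where it called 0% of all genes (1275 of 15937, or 8%, had an unadjusted p under 0.05), and its adjusted p ran from 0.587 to 0.915 over the set. With no adjustment, 11 of the 32 had an edgeR p under 0.05, all lower in KO, where 3.98% of all genes were lower and 4.02% higher at that level. DESeq2, which called 63 genes or 0.395% of those tested, called none of the 32 (smallest adjusted p 0.161), and limma-voom called none (0.523), with 0% of all genes. The 32 genes varied together across the libraries (median pairwise Pearson r of 0.88 on log2 CPM over the 6 libraries, which differ in tissue makeup), so a count over them is not a count of independent results.

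The libraries were deep, with 22223584 to 26982005 counts each, and the mitotic genes together took 3128 (KO 3) to 9361 (WT 3) counts of a library. Levels are given as CPM, counts of a gene relative to the library's counts in tested genes, scaled by TMM. Transcripts of sympathetic neurons set WT 2 and KO 3 apart. The neuronal marker genes summed to 3673 CPM in KO 3, to 1749 CPM in WT 2 and to between 109 and 173 CPM elsewhere. The ribosomal RNA gene Rn45s took its smallest share of counts in WT 2 (2.04%) and its largest in KO 3 (10.4%). Smooth muscle and macrophage markers were plentiful in every library, whereas the epithelial markers named in the tissue label summed to 12.4 to 19.8 CPM, with Krt5 and Krt14 too low to be tested. The targeted gene, Col15a1 (mm9 chromosome 4, 47220884 to 47326037), had no KO library above a WT library, at 494 ± 83.8 CPM in WT against 161 ± 60.6 CPM in KO (SD, n = 3 each), and was called by DESeq2 (adjusted p 0.00219) but not by edgeR (adjusted p 0.587).

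**Figure D1:**
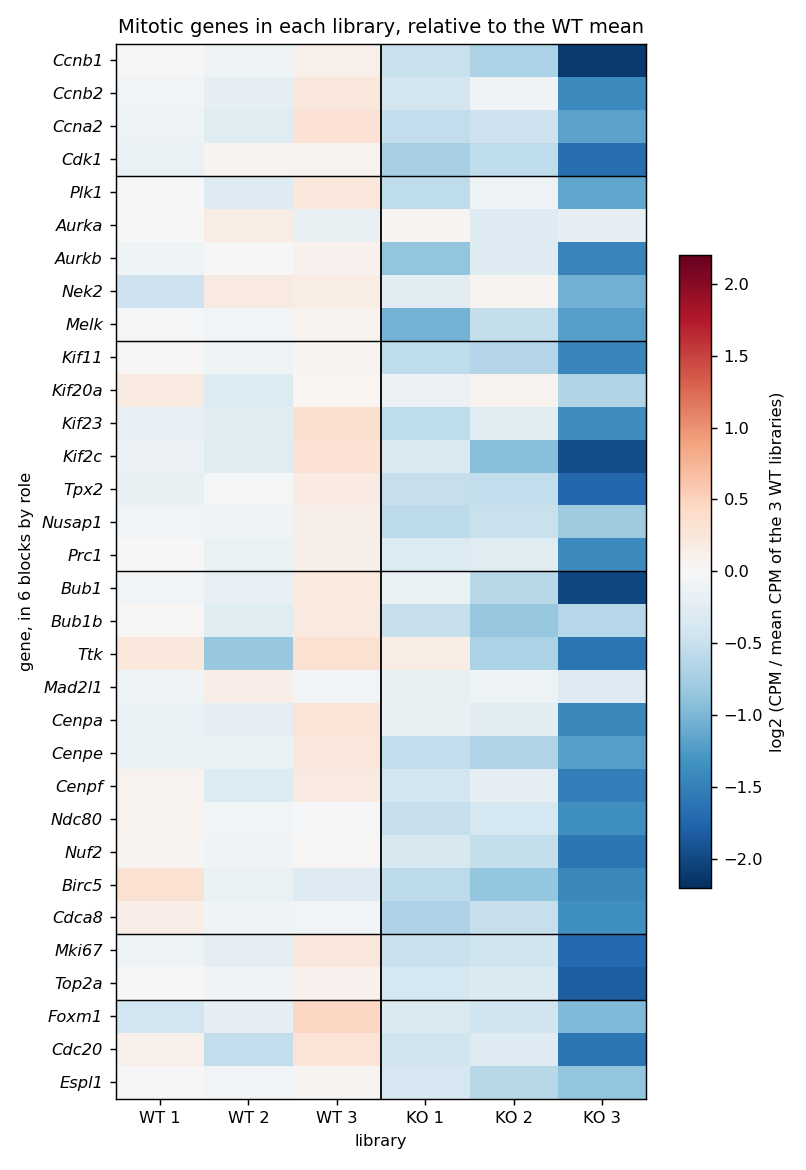
Level of each of the 32 mitotic genes (rows, in blocks by role) in each library (columns), as log2 of its CPM over the mean CPM of the 3 WT libraries, with blue for lower and red for higher. KO 3 is the lowest library for 30 of the 32 genes, and KO 1 and KO 2 lie between it and most WT values.

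KO 3 was the lowest of the 6 libraries for 30 of the 32 mitotic genes, and KO 2 for the remaining Aurka and Bub1b. Over all genes tested, KO 3 was the lowest library for 26.2%. WT 3 was the highest library for 24 of the 32. KO 3 was under 50% of the WT mean for 25 of the genes, with a range from 23.2% (Ccnb1) to 87.2% (Aurka). KO 1 and KO 2 by themselves lay below every WT library for 21 of the 32, against 14.6% of all genes tested. Without KO 3 the median log2 fold change was -0.44 in place of -0.68, 13 genes in place of 28 were under -0.5, and all 32 still had a negative sign. Without both WT 2 and KO 3 the median was -0.52 and 31 of 32 were negative, the exception being Nek2 at 0.017.

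The sequences in front of a few of these genes are shown because shared promoter elements are the textbook feature of this programme. The part of these elements in the difference between KO and WT was not tested. The cell cycle genes homology region (CHR) is read by the DREAM complex in resting cells and by the complex of MuvB with B-MYB in dividing cells, and CCAAT boxes are bound by NF-Y. RefSeq promoter windows of build GRCm38.p6, with 250 bases before and 50 after the annotated start, were at hand for 27 of the 32 genes. They were searched on both strands for the CHR letters TTTGAA or TTCGAA and for the NF-Y letters CCAAT. The second CHR form reads the same on both strands, and adjoining matches may share a base. A CHR match lay in 19 of the 27 windows (70.4%), against 14% of the windows of 11859 genes tested and 19.4% of 27025 genes in the table. A CCAAT match lay in 20 of 27 (74.1%), against 38% and 37.9%, and both lay in 17 of 27 (63%), against 5.7% and 7.7%. The last 150 bases before the start follow, 5′ to 3′ on the gene's strand, with CHR and CCAAT matches of either strand in capitals. Mad2l1 is included as a gene close to level that had no match. It was 1 of 5 genes with neither match in the window. The others, Melk, Nusap1, Nuf2 and Birc5, had log2 fold changes from -0.91 to -0.61.
Mki67: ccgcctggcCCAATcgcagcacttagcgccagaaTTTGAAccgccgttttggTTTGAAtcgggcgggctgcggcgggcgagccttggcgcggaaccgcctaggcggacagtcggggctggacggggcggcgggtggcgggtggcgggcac
Top2a: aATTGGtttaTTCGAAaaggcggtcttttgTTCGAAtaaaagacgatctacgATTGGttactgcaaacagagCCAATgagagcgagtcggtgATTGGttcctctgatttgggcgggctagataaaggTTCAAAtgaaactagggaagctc
Cdk1: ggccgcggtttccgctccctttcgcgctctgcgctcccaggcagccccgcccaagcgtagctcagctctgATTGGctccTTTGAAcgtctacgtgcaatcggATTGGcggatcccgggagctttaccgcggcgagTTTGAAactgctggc
Kif11: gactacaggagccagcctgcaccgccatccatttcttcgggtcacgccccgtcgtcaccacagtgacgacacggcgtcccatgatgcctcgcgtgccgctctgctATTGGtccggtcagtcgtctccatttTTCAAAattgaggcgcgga
Espl1: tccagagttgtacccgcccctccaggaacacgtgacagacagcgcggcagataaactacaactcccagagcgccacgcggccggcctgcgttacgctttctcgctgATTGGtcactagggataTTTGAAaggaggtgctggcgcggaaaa
Cdc20: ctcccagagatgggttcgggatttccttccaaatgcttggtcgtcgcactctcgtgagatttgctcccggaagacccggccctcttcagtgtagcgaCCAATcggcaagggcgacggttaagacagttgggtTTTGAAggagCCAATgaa
Mad2l1: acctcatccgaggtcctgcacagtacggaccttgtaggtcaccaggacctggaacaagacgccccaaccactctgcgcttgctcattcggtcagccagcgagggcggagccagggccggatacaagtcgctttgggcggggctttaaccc

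These stretches lie at chr7:135716380-135716529 (minus strand) for Mki67, chr11:99024190-99024339 (minus strand) for Top2a, chr10:69352913-69353062 (minus strand) for Cdk1, chr19:37376232-37376381 (plus strand) for Kif11, chr15:102296143-102296292 (plus strand) for Espl1, chr4:118437344-118437493 (minus strand) for Cdc20 and chr6:66535071-66535220 (plus strand) for Mad2l1. Top2a held 3 CHR and 4 CCAAT matches in this stretch, Mki67 held 2 and 1, and Cdk1 held 2 and 2. Kif11 and Espl1 held 1 of each, Cdc20 held 1 and 2, and Mad2l1 held none. Of the 8 genes with no CHR match in the whole window, Ccnb1, Birc5 and Melk were among the lowest in KO relative to WT, while Mad2l1 was among the least different. Aurka, the gene closest to level (log2 fold change -0.14), held 1 CHR and 2 CCAAT matches in its window. A match describes letters only, and no binding was measured here.

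The cyclins and their kinase came first in the order of roles. Cdk1 (chromosome 10, 68799383 to 68815660, mm9), the kinase that starts mitosis, was at 5.18, 6.02 and 6.07 CPM in the WT libraries 1 to 3 against 3.45, 3.93 and 1.81 CPM in the KO libraries 1 to 3, an order kept for the values by library below. Every KO library lay below every WT library, with a log2 fold change of -0.91 (SE 0.32). Ccnb1 (chromosome 13, 101548694 to 101556441), which encodes cyclin B1, was at 6.05, 5.71 and 6.57 CPM in WT against 4.36, 3.75 and 1.42 CPM in KO, with the largest difference of the 32 (log2 fold change -0.94, SE 0.42). The groups did not overlap, and KO 3 was at 23.2% of the WT mean. Ccna2, the gene of cyclin A2, which acts in S phase and early mitosis, was at 8.504, 7.63 and 11.4 CPM in WT against 6.29, 6.68 and 4.06 CPM in KO, again without overlap (log2 fold change -0.69, SE 0.27). Ccnb2, the gene of cyclin B2, overlapped: KO 2 at 3.58 CPM was above WT 2 at 3.23 CPM, with group levels of 3.77 ± 0.65 CPM in WT against 2.62 ± 1.1 CPM in KO.

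Of the 5 mitotic kinase genes, Aurkb and Melk had separate groups (8.38% of all genes tested had KO below WT throughout). Plk1, Aurka and Nek2 overlapped. Aurkb, the catalytic part of the chromosomal passenger complex that corrects wrong spindle attachments, was at 3.05, 3.23 and 3.44 CPM in WT against 1.77, 2.66 and 1.18 CPM in KO. Melk, a kinase gene expressed in dividing cells, was at 2.96, 2.89 and 3.17 CPM in WT against 1.47, 2.095 and 1.301 CPM in KO, with a log2 fold change of -0.89 (SE 0.25). Melk is the mitotic gene nearest to the targeted locus, on chromosome 4 at 44313789 to 44377547 (mm9), 2.84 megabases from Col15a1; the part of this position in its level was not tested. Aurka, the kinase of the spindle poles, was close to level, at 2.96, 3.33 and 2.67 CPM in WT against 3.105, 2.44 and 2.602 CPM in KO. WT and KO libraries of Aurka were interleaved (log2 fold change -0.14, SE 0.21), and its standard error was larger than the difference. Plk1, a kinase with roles from mitotic entry to cytokinesis, was at 3.29 ± 0.59 CPM in WT against 2.27 ± 0.78 CPM in KO, and Nek2, a centrosome kinase gene, at 3.44 ± 0.82 CPM in WT against 2.72 ± 0.98 CPM in KO.

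Among the 7 genes of kinesins and spindle proteins, 6 had separate groups (8.38% of all genes tested), and Kif20a overlapped. Kif11 (chromosome 19, 37450893 to 37496349, mm9), the motor that pushes spindle poles apart, was at 12.01, 10.96 and 12.3 CPM in WT against 7.93, 7.51 and 4.34 CPM in KO. All 3 KO values of Kif11 lay under 8 CPM and all 3 WT values above 10 CPM (log2 fold change -0.83, SE 0.25). Nusap1, which binds and bundles spindle microtubules, was at 6.87, 6.79 and 7.88 CPM in WT against 4.83, 5.11 and 4.18 CPM in KO. It had the smallest unadjusted p of the set and a narrow spread in both groups (log2 fold change -0.61, SE 0.17), and KO 3 lay close to the other KO libraries. Tpx2, which activates Aurora A and nucleates spindle microtubules, was at 10.8, 11.6 and 13.6 CPM in WT against 8.41, 8.204 and 3.63 CPM in KO, with KO 3 well below KO 1 and KO 2. Kif2c, which depolymerises microtubule ends, had a log2 fold change of -0.92 (SE 0.43), Kif23, a motor of the midzone and cytokinesis, one of -0.66 (SE 0.33), and Prc1, the crosslinker of midzone microtubules, one of -0.57 (SE 0.31). Kif20a, another cytokinesis motor, was at 7.27 ± 1.2 CPM in WT against 6.31 ± 1.6 CPM in KO, with KO 1 and KO 2 inside the WT range.

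**Figure D2:**
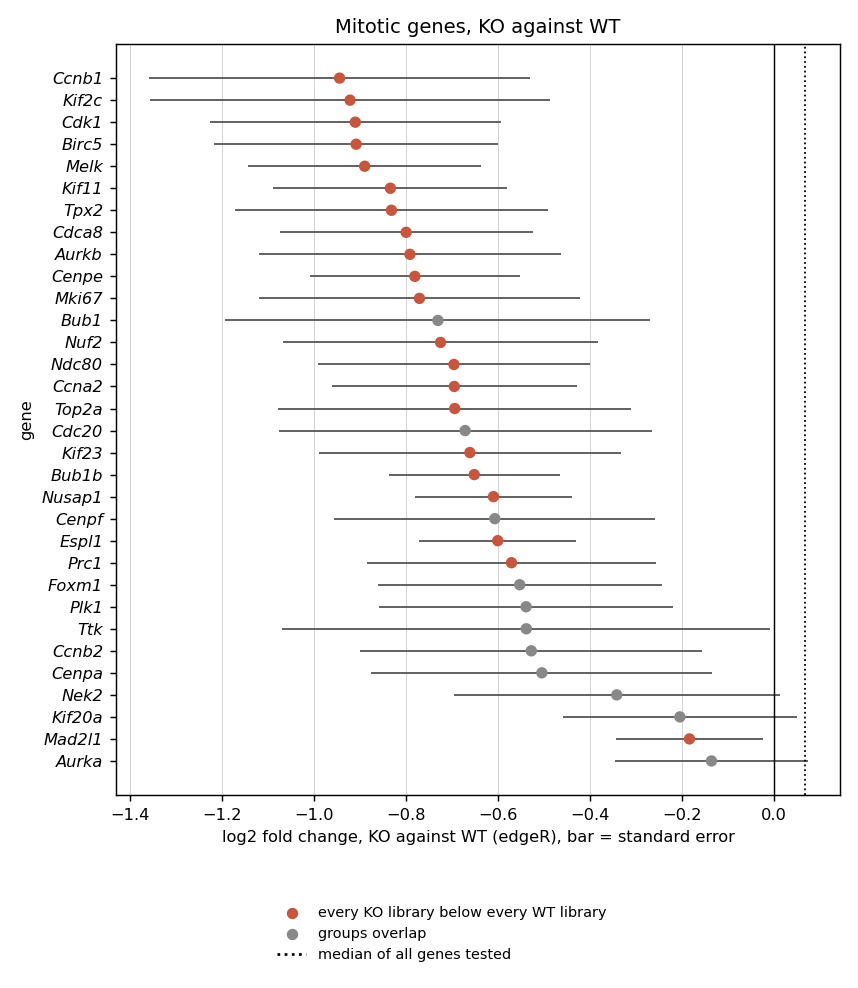
Log2 fold change of each mitotic gene, KO against WT, with its standard error from edgeR, in order of size. All 32 points lie left of 0, from -0.94 (Ccnb1) to -0.14 (Aurka), and red points mark the 21 genes whose KO libraries all lie below the WT libraries.

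The kinetochore, checkpoint and centromere genes formed the largest role, with 11 members, of which 7 had separate groups (8.38% of all genes tested). Bub1b, which encodes the checkpoint protein BUBR1, was at 11.2, 9.21 and 12.8 CPM in WT against 7.76, 6.196 and 7.22 CPM in KO. Here KO 2 was the lowest library, and KO 3 was not set apart from the other KO libraries (log2 fold change -0.65, SE 0.19). Cenpe, the kinetochore motor that moves chromosomes to the spindle equator, was at 12.9, 13.04 and 17.2 CPM in WT against 9.83, 9.08 and 6.19 CPM in KO, with no overlap (log2 fold change -0.78, SE 0.23). Birc5, the gene of survivin, was at 4.41, 3.16 and 2.86 CPM in WT against 2.33, 1.92 and 1.301 CPM in KO. Cdca8, the gene of borealin, was at 3.64, 3.09 and 3.17 CPM in WT against 2.07, 2.31 and 1.301 CPM in KO. Survivin and borealin are partners of Aurora B in the passenger complex, and all 3 genes of that complex in the set had separate groups, with log2 fold changes from -0.91 to -0.79. Ndc80 and Nuf2, which encode a dimer that holds microtubules at the kinetochore, had log2 fold changes of -0.70 and -0.72 and separate groups.

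The checkpoint and centromere genes did not all differ alike. Mad2l1, the gene of the checkpoint protein MAD2, was at 6.41, 7.56 and 6.61 CPM in WT against 6.12, 6.37 and 5.64 CPM in KO. The KO libraries lay just under the WT libraries, by a log2 fold change of -0.18 (SE 0.16), and KO 3 was at 82.2% of the WT mean. Bub1, a checkpoint kinase gene, was at 4.11 ± 0.58 CPM in WT against 2.48 ± 1.4 CPM in KO, with KO 1 inside the WT range and KO 3 at 24.9% of the WT mean. Ttk, the kinase gene at the top of the checkpoint, was at 2.68, 1.28 and 2.86 CPM in WT against 2.54, 1.396 and 0.749 CPM in KO. Ttk had the fewest counts of the set, and its groups overlapped, with WT 2 below both KO 1 and KO 2; its 19 counts in KO 3 carry an exact 95% Poisson interval of 11.4 to 29.7, which covers counting error only. Cenpa, the histone variant that marks the centromere, and Cenpf, a large kinetochore protein gene, overlapped as well, at log2 fold changes of -0.50 and -0.61.

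The most abundant transcripts of the set were those of Mki67 and Top2a. Mki67 (chromosome 7, 142881471 to 142908062, mm9), which encodes the proliferation marker Ki-67 that coats mitotic chromosomes, was at 67.1, 63.1 and 86.2 CPM in WT against 51.3, 53.5 and 22.1 CPM in KO. Group levels were 72.1 ± 12.3 CPM in WT against 42.3 ± 17.5 CPM in KO (SD, n = 3 each), with a log2 fold change of -0.77 (SE 0.35). Top2a, the gene of the topoisomerase that untangles chromosomes, was at 43.7, 40.7 and 46.3 CPM in WT against 33.4, 34.997 and 12.4 CPM in KO, with a log2 fold change of -0.69 (SE 0.38). For both genes the groups did not overlap, and KO 3 was at less than 31% of the WT mean. Per kilobase of exon, Top2a had the highest WT level of the set at 8.35 CPM per kb, followed by Mki67 at 7.16 and Prc1 at 5.19, and Ttk had the lowest at 0.729, a range of 11.4-fold.

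Of the transcription and anaphase regulators, 1 of 3 had separate groups (8.38% of all genes tested). Espl1, the gene of separase, which cuts cohesin at anaphase, was at 11.2, 10.8 and 11.8 CPM in WT against 8.67, 7.42 and 6.19 CPM in KO (log2 fold change -0.60, SE 0.17). Cdc20, an activator of the anaphase-promoting complex, was at 5.23 ± 1.5 CPM in WT against 3.28 ± 1.4 CPM in KO, and KO 1 and KO 2 lay above WT 2. Foxm1, a transcription factor gene for the G2 and M programme, was at 6.18 ± 2.0 CPM in WT against 4.22 ± 0.94 CPM in KO, with KO 1 above WT 1. At the level of roles, the median log2 fold change ran from -0.80 for the cyclins and Cdk1 to -0.54 for the mitotic kinases, and no difference between roles was tested.

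The distance of KO 3 from the other KO libraries was uneven across the set. The log2 ratio of KO 3 to the mean of KO 1 and KO 2 had a median of -0.93 over the 32 genes, and its values ran from -1.65 for Bub1 and -1.51 for Ccnb1 to 0.048 for Bub1b. Over all genes tested the same median was -0.012. Nusap1 (-0.25), Espl1 (-0.38) and Melk (-0.45) lay in between. The log2 ratio of the mean of KO 1 and KO 2 to the WT mean had a median of -0.44. It was closest to WT for Kif20a (-0.018) and Nek2 (-0.081) and farthest for Melk (-0.76) and Birc5 (-0.71).

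Other genes of the cell cycle were read from lists chosen by function. Of 55 other G2 and M genes tested, 47 were lower in KO by sign (median log2 fold change -0.56), and every KO library lay below every WT library for 26 (8.38% of all genes tested). None of the 55 passed in edgeR or DESeq2, and at an unadjusted edgeR p under 0.05, 13 were lower and 0 higher (3.98% and 4.02% of all genes). Cdc25c, the phosphatase gene that switches on CDK1, was at 1.24 ± 0.23 CPM against 0.356 ± 0.17 CPM, on only 4 to 36 counts per library. Spc24, a kinetochore gene, was at 1.98 ± 0.23 CPM against 0.9995 ± 0.26 CPM. Ncapg2, a condensin II subunit gene, was at 32.2 ± 2.6 CPM against 19.6 ± 4.6 CPM. Among the 8 with a positive sign was Stmn1 (0.41), which neurons also express.

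S phase genes had the same sign but a smaller median. Of 36, 29 were negative, with a median log2 fold change of -0.23, and 10 had every KO library below every WT library (8.38% of all genes tested). None passed in edgeR, with 4 lower at an unadjusted p under 0.05 (3.98% of all genes). DESeq2 called 1 (0.395% of all genes), E2f8 at an adjusted p of 0.0499998, on the threshold itself. E2f8, a repressor of the E2F family, was at 2.801 ± 0.79 CPM against 0.9496 ± 0.19 CPM, Brca1, a DNA repair gene, at 6.03 ± 1.1 CPM against 3.57 ± 0.42 CPM, Fen1, the flap nuclease gene of replication, at 9.98 ± 1.3 CPM against 7.19 ± 0.65 CPM, and Pcna, the sliding clamp gene, at 47.2 ± 2.2 CPM against 36.5 ± 5.8 CPM. The difference between the S phase and the mitotic medians was not tested.

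Regulators of the cycle made up 3 further lists, whose medians were not tested against those above. Of the 8 G1 cyclin and kinase genes, 6 were negative (median log2 fold change -0.17), led by Cdk6 at 29.6 ± 1.8 CPM against 20.1 ± 5.3 CPM. Of the 14 cell cycle inhibitor and pocket protein genes, 9 were negative (median -0.13), and their median turned to 0.030 without KO 3. The inhibitor genes Cdkn2a, Cdkn2b and Cdkn1a had lower mean levels in KO, without passing the test, at 1.92 ± 0.88 CPM against 0.427 ± 0.38 CPM, 3.89 ± 0.40 CPM against 2.29 ± 0.41 CPM and 28.01 ± 3.2 CPM against 20.7 ± 3.3 CPM. Cdkn2a had only 4 to 72 counts per library, with WT 1 at 0.909 CPM close to KO 1 at 0.862 CPM. Of the 10 genes of the DREAM and MMB complexes, which bind the CHR, 5 were negative and 5 positive (median -0.011). Every KO library lay above every WT library for 2 of the 10 (8.33% of all genes tested) and below for 1 (8.38%). Lin52, one of their shared subunits, was among the former, at 9.4000 ± 1.2 CPM against 13.2 ± 2.2 CPM. Lin9 was the latter, at 6.99 ± 0.22 CPM against 5.715 ± 1.04 CPM. No gene of these 3 lists was called by edgeR (adjusted p of 0.587 or more) or by DESeq2. Without adjustment, edgeR had a p under 0.05 for 4 of the inhibitor and G1 genes, all lower, and for 1 of the 10 DREAM and MMB genes, Lin52, which was higher, where 3.98% of all genes were lower and 4.02% higher at that level.

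**Figure D3:**
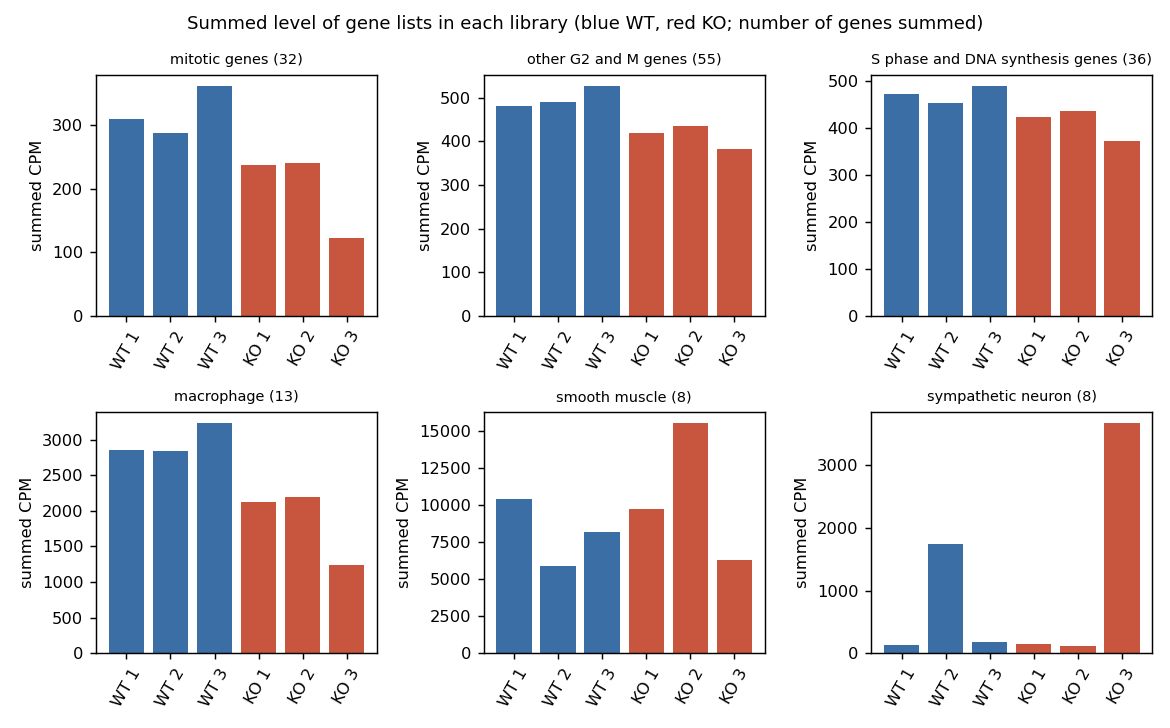
Summed CPM of 6 gene lists in each library, WT in blue and KO in red, with the number of genes summed in brackets. The mitotic and the macrophage sums rank the 6 libraries in the same order, from WT 3 down to KO 3, while the neuronal sum is high in WT 2 and KO 3.

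The summed level of the mitotic genes was 310.5, 288 and 362 CPM in the WT libraries 1 to 3 against 237, 241 and 123 CPM in the KO libraries 1 to 3. The summed macrophage markers followed the same order of libraries. Of the 13 macrophage markers tested, 11 were negative and had every KO library below every WT library (median log2 fold change over the 13, -0.91), against 8.38% of all genes tested, and the exceptions were the resident macrophage genes Cd163 and Mrc1. No macrophage marker passed in edgeR (smallest adjusted p 0.587). At an unadjusted edgeR p under 0.05, 8 were lower and 1 higher, against 3.98% and 4.02% of all genes. DESeq2 called 1, Aif1 (adjusted p 0.0337), against 0.395% of all genes. The macrophage markers summed to 2834 to 3227 CPM in WT against 1232 to 2199 CPM in KO. The mitotic sum, as a share of the macrophage sum, was 10.9%, 10.2% and 11.2% in the WT libraries 1 to 3 against 11.2%, 10.97% and 10.01% in the KO libraries 1 to 3. The groups overlapped fully on this measure, with means of 10.7% ± 0.53 in WT and 10.7% ± 0.63 in KO (SD, n = 3 each). Leaving out any macrophage marker in turn left the highest share between 1.105 and 1.32 times the lowest. Single markers nevertheless differed widely in KO 3. Trem2 was at 8.08% and Lgals3 at 9.61% of the WT mean, Csf1r at 61.4%, Mrc1 at 99.4% and Cd163 at 258%. The share therefore depends on which markers are summed, and leaving out 1 at a time does not show how far. As a share of the other G2 and M genes, the mitotic sum differed 2.135-fold between the highest and the lowest library. Against the S phase genes it differed 2.226-fold, and against the macrophage markers 1.12-fold. The ratio of the mitotic to the macrophage sum was chosen after its values were seen, and the part of macrophage content in the mitotic levels was not tested.

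The same share against the markers of other cell types was less even across libraries. Between the highest and the lowest library it differed 1.12-fold for macrophages, 1.61-fold for adventitial fibroblasts, 2.15-fold for neutrophils, 2.19-fold for T cells, 2.87-fold for endothelium, 3.14-fold for smooth muscle and 11.04-fold for adipocytes. Against smooth muscle it was 4.103% ± 0.99 in WT and 1.98% ± 0.44 in KO (SD, n = 3 each). Smooth muscle markers summed to 5891 to 10390 CPM in WT against 6319 to 15500 CPM in KO, so they did not have the order of the mitotic genes. Adipocyte markers summed to 761, 231 and 597.5 CPM in the WT libraries 1 to 3 against 1246, 959 and 1090 CPM in the KO libraries. All 7 had a positive sign, and 5 had every KO library above every WT library (8.33% of all genes tested). None of the 7 passed in edgeR or DESeq2, and the part of fat tissue in the mitotic levels was not tested. Neutrophil markers summed to 23.2, 36.6 and 24.9 CPM in the WT libraries 1 to 3 against 14.01, 17.5 and 9.19 CPM in the KO libraries, also without overlap. This list rested on 3 genes, all with a negative sign (median log2 fold change -0.91), since Ly6g, Mpo, Elane and Retnlg were too low to be tested. Most of the sum came from Csf3r, a receptor gene that monocytes also express. Csf3r was not called by edgeR (adjusted p 0.587). DESeq2 called it at an adjusted p of 0.0499998, on the threshold itself, where it called 0.395% of all genes. The part of neutrophils in the mitotic levels was not tested. All 7 T cell markers tested had a negative sign (median -0.46), and none passed in edgeR or DESeq2. T cell markers summed to 23.5 to 29.2 CPM in WT against 18.3, 28.6 and 6.66 CPM in KO 1, KO 2 and KO 3. Thymocyte genes, which mark a tissue rich in dividing cells, summed to 5.01 to 20.2 CPM in WT against 3.55 to 32.3 CPM in KO, highest in KO 2, with Ptcra too low to be tested. Erythroid precursor genes were highest in WT 3, at 100.5 CPM against 15.7 to 23.7 CPM in the others, with Klf1 and Rhag too low to be tested; WT 3 was also the highest library for most mitotic genes, and the part of erythroid cells in this was not tested.

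**Figure D4:**
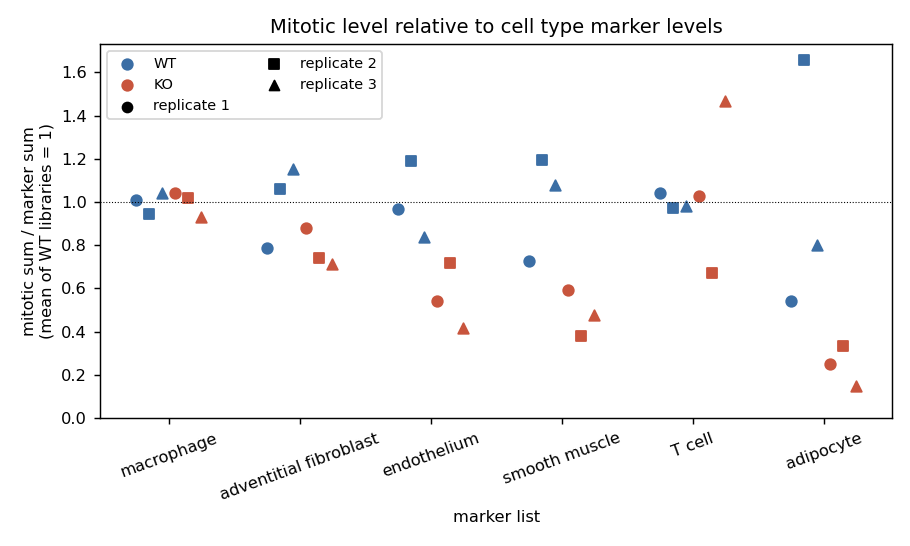
Summed mitotic level divided by the summed marker level of 6 cell types in each library, scaled so that the mean of the WT libraries is 1. The macrophage values of all 6 libraries lie close to 1, while KO libraries lie below the WT mean for adventitial fibroblasts, endothelium, smooth muscle and adipocytes.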

How the data were processed

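RNA sequencing of 6 arteries, 3 WT and 3 KO, gave a table of raw counts of reads for each gene, which the authors deposited without normalization. Its header records featureCounts 1.4.6-p4, run on exons of the UCSC mm9 gene models and grouped by gene name; no strand, pair or multi-mapping option was set, per the file headers. Other tools in the submitters' processing notes are CASAVA, Subread, DESeq2 and STAR, whose version is given as 3.0. Reads over several genes, 0.347% to 0.448% of alignments, were left out, and 32.6% to 36.9% of alignments were assigned.

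The comparison of KO with WT used the two-sided quasi-likelihood test of edgeR 4.0.16 under R 4.3.3 (TMM, filterByExpr with a minimum count of 10), with p-values adjusted by Benjamini-Hochberg over 15937 genes with a threshold of 0.05. Standard errors were derived from the F statistic. DESeq2 1.42.0 and limma-voom (limma 3.58.1) were run as alternatives, and the steps were tested on simulated counts. Other settings were 3 scalings, 2 filters, each library left out, WT 2 and KO 3 left out, the replicate number as a block, and the removal of Rn45s and Lars2. Groups and replicate numbers came from the sample titles. No pair of libraries of a group agreed within sampling noise (chi-square per degree of freedom 30.4 to 230.9). The labels give 3 animals per group but do not tie libraries to litters or days. The members and lists were chosen with earlier results of these data known. All mitotic genes are accounted for, with values in every library for the 12 with the smallest unadjusted p, for Mki67, Top2a, Ccnb1 and Cdk1, and for both ends of the range of level per length; of each other cell cycle list up to 4 genes with the smallest unadjusted p were considered. Aurka, Mad2l1, Nek2 and Stmn1 were singled out after their values were seen.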

Additional observations from a re-analysis of the deposited data

How the results depend on the processing

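The sign of all 32 mitotic genes was negative in every setting run apart from the one without WT 2 and KO 3, where Nek2 turned to 0.017, and 0 of the 32 passed in any setting. Their median log2 fold change stayed between -0.72 and -0.68 over the scalings, filters, tools and the removal of Rn45s and Lars2, and ran from -0.85 (without KO 1) to -0.44 (without KO 3) with a library left out. The number of genes whose KO libraries all lay below WT was 19 with upper-quartile scaling, 25 with total counts and 21 to 28 with a library left out, where fewer values must be ordered. Over all genes, edgeR called 0 in the other settings, but DESeq2 called 63 (30 lower and 33 higher) and edgeR without WT 2 and KO 3 called 1, Gbp2b; the cause was not tested. With a library left out, edgeR called 0 to 0 genes. The S phase median then ran from -0.34 to -0.15 and the G1 median from -0.34 to -0.10, both lowest without KO 1, and the median of the DREAM and MMB genes was -0.105 without WT 2 and KO 3. With the replicate number as a block, edgeR called 0 genes, and the mitotic median was -0.71. No label ties the replicate numbers to a shared litter or day, so same-numbered libraries were not treated as pairs. Their deviations correlated at 0.43 for number 1 and at -0.68 and -0.58 for numbers 2 and 3. WT 2 and KO 3, the libraries rich in neuronal transcripts, correlated at 0.77. These correlations cannot decide on pairing, because they follow which libraries held neuronal tissue. Depth limits the lowest genes most, such as Ttk with 19 counts in KO 3, and Cdc25c and Cdkn2a with 4 counts each in KO 3.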
